A study of Homo sapiens with 4 samples.

Results

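The genes described are 9 integrin subunits, the αv and α5 chains with their relative α8, the β3, β5, β6 and β8 chains that pair with αv, and the α4 and α9 chains. They were chosen by symbol, and every one of the 9 was found among the 56304 genes of the count table, which holds 26 integrin subunits in all. The cells were MV3 H2B-GFP, an established line from a highly metastatic human melanoma that carries a fluorescent histone, and both groups carried it. Spheroids of 50000 cells were embedded in collagen I and dissected under a fluorescence microscope on day 2. The core group was the spheroid body taken with a 1 mm punch, and the invasion group was the surrounding collagen with the cells that had moved into it, taken with a 3 mm punch. Each zone had 2 libraries, numbered replicate 1 and replicate 2. The punch takes a full column of gel, so the core group may hold cells that had invaded upward or downward.

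Integrins are receptors built from 1 α and 1 β chain that hold cells to the extracellular matrix and to other cells. The αv receptors, α5β1 and α8β1 recognise the tripeptide arginine-glycine-aspartate, called RGD, in ligands such as fibronectin and vitronectin. The receptors αvβ6 and αvβ8 also bind the RGD motif in latent TGF-β and release or expose the active growth factor. The α4 and α9 chains form a separate branch, known from leukocyte homing through α4β1 and α4β7, and bind ligands such as VCAM-1, a fibronectin splice segment and tenascin-C. The β3 chain of αvβ3 is a long-studied marker of the step from radial to vertical growth in melanoma. Collagen I itself is bound mainly by α1, α2, α10 and α11 with β1, and none of these α chains is among the 9 genes.

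The libraries held 36363358 and 14983135 counts in the core and 37591782 and 11789243 in the invasion zone, so replicate 2 was the shallower in both zones. Levels are given in CPM, a count relative to the TMM-adjusted depth of its library. Of 8 melanocyte lineage markers, 6 were under 1 CPM in every library, and SOX10 and TYR had no count at all. MITF lay between 1.71 and 3.36 CPM. All 8 summed to 3.91 and 3.58 CPM in the core and 2.9 and 6.05 CPM in the invasion zone. These genes thus marked the line as melanocytic weakly at most. Leukocyte markers were near 0, with a summed level of 1.51 to 2.32 CPM over 7 genes and PTPRC at 0.195 CPM or less. The 5 endothelial markers summed to 18.6 and 8.08 CPM in the core and 5.57 and 0.925 CPM in the invasion zone. Nearly all of it was PECAM1, and the other 4, TIE1 among them, were under 1 CPM in every library. CDH5, KDR and TEK were at 0.199 CPM or less. Of the 5 markers, 2 were tested, and both were lower in both invasion libraries than in both core libraries. The median log2 fold change of these 2 with the block was -1.78, and 1 of them was called lower. PECAM1 itself had a log2 fold change of -2.09 with the block, the direction of the genes below, and its part in their values was not tested. Epithelial markers were near 0 except KRT18. These are bulk samples, so fewer cells carrying a transcript and less transcript per cell cannot be told apart.

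Of the 9 genes, 6 had enough counts to be tested, and all 6 were lower in both invasion libraries than in both core libraries. Over all 15529 genes tested, 30.3% showed that separation downward and 28.1% upward. The edgeR quasi-likelihood test without a replicate term called none of the 9 genes and no gene of the table, 0% higher and 0% lower, at an adjusted p under 0.05 and at least a 2-fold change. Its smallest adjusted p over all genes was 0.128, and 454 genes were higher and 909 lower at an unadjusted p under 0.05 with that fold. ITGB3 and ITGB8 were among the 909. DESeq2 without a replicate term called ITGB3 lower and limma voom called none. With the replicate number as a block, edgeR called ITGB3 and ITGB8 lower and no member higher, against 7.06% of all genes called lower and 3.41% called higher. Without the fold minimum, the blocked test also passed ITGB5 and ITGAV, lower, so 4 of the 6 passed downward against 19.4% of all genes, with none upward against 19.4%. "Fell" and "rose" below refer to the blocked test, and edgeR without the block made no such call on the 15529 genes. Leaving out 1 library also changed the unblocked result, which called 2 members lower without invasion replicate 1, 1 without invasion replicate 2 and 0 without either core library.

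**Figure D1:**
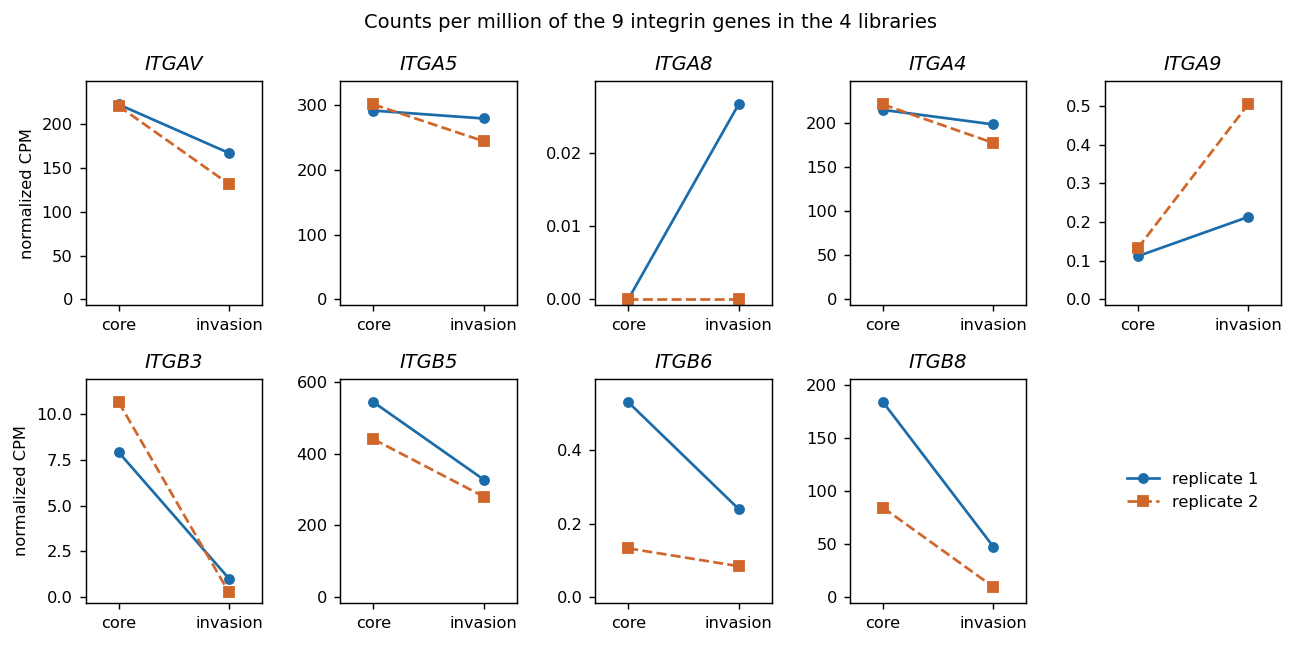
Normalized CPM (vertical axes, linear, each gene on its own scale from 0) of the 9 integrin genes in the core and the invasion zone (horizontal axis), with a line joining the same-numbered libraries. All 6 tested genes were lower in both invasion libraries than in both core libraries, and ITGA8, ITGA9 and ITGB6 stayed under 1 CPM in every library.

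Among the 3 tested RGD-binding β chains, ITGB3 had the largest fold change between the zones and ITGB5 the largest difference in CPM. ITGB3 (ENSG00000259207, chromosome 17, 47253827 to 47313743, plus strand, GRCh38) encodes the β3 chain of αvβ3 and of the platelet receptor αIIbβ3. Its level was 7.93 and 10.7 CPM in core 1 and core 2, and 1.01 and 0.252 CPM in invasion 1 and invasion 2. The zones did not overlap, and the second invasion library held only 3 counts of the gene against 161 in its core partner. The core exceeded the invasion zone 7.83-fold in replicate 1 and 42.3-fold in replicate 2. For the ratio of invasion zone to core, the 95% exact interval from counting error alone was 0.0886 to 0.180 in replicate 1 and 0.00483 to 0.0703 in replicate 2. The fitted log2 fold change was -3.66 (SE 0.559, adjusted p = 0.128, edgeR) without the block and -3.54 (SE 0.410, adjusted p = 0.000296, edgeR) with it. Leaving out 1 library at a time moved the unblocked log2 fold change between -5.16 and -3.19. ITGB3 is among the genes the study itself picked out on these samples, so its direction here is no separate evidence. Exons of a read-through gene on the same strand cover 2266 of its 6829 exonic bases, and that read-through gene had no count in any library. How reads on the shared bases were assigned is not stated in any source read. The RPKM of ITGB3 below divides by all 6829 bases and would be too low if such reads were dropped.

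ITGB8 (ENSG00000105855, chromosome 7, 20330702 to 20415754, plus strand) encodes the β8 chain of αvβ8, which lacks the usual links to the actin cytoskeleton and holds latent TGF-β at the cell surface. Its level was 183 and 84.2 CPM in core 1 and core 2, and 47.4 and 9.58 CPM in invasion 1 and invasion 2. Within each zone the replicate 2 library was the lower, and the lowest core value still lay above the highest invasion value. The core exceeded the invasion zone 3.87-fold in replicate 1 and 8.79-fold in replicate 2. Its log2 fold change was -2.20 (SE 0.769, adjusted p = 0.173, edgeR) without the block and -2.42 (SE 0.220, adjusted p = 0.000119, edgeR) with it. The SE of ITGB8 with the block was thus well under its SE without it. Single libraries left out moved the unblocked value between -3.81 and -1.50. An antisense gene, ITGB8-AS1, shares 132 of its exonic bases and lay between 0.420 and 2.29 CPM, and whether the counting used strand is not stated in any source read.

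ITGB5 (ENSG00000082781, chromosome 3, 124761948 to 124901418, minus strand) encodes the β5 chain of αvβ5, the vitronectin receptor found in flat clathrin-rich adhesions. It was measured at 544 and 441 CPM in core 1 and core 2, and at 328 and 281 CPM in invasion 1 and invasion 2. The fold was nearly the same in the replicates, 1.66 and 1.57 in favour of the core. Its log2 fold change was -0.70 (SE 0.176, adjusted p = 0.135, edgeR) without the block and -0.69 (SE 0.0721, adjusted p = 0.000198, edgeR) with it, so ITGB5 fell by less than the 2-fold minimum.

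ITGB6 (ENSG00000115221, chromosome 2, 160099667 to 160200313, minus strand), whose β6 chain forms the epithelial TGF-β activator αvβ6, had 19 and 2 counts in the core and 9 and 1 in the invasion zone. These were too few to be tested, and the zones overlapped. The summed counts of 21 and 10 gave a ratio of invasion zone to core of 0.491, with a 95% exact interval from 0.206 to 1.09, so no difference was detectable at this depth. Exons of a noncoding gene on the same strand share 966 of the 5785 exonic bases of ITGB6.

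Among the RGD-binding α chains, the gene for αv was lower in the invasion zone and the gene for α5 could not be separated from no difference. ITGAV (ENSG00000138448, chromosome 2, 186590010 to 186680901, plus strand), the shared partner of the β3, β5, β6 and β8 chains, was at 223 and 221 CPM in the core and 167 and 132 CPM in the invasion zone. The core libraries were within a few CPM of each other and both invasion libraries were lower. ITGAV fell by 0.58 on the log2 scale with the block (SE 0.0934, adjusted p = 0.00153, edgeR), and the value without the block was -0.57 (SE 0.166, adjusted p = 0.152, edgeR).

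ITGA5 (ENSG00000161638, chromosome 12, 54395261 to 54419266, minus strand) encodes the α5 chain of the fibronectin receptor α5β1. It stood at 291 and 301 CPM in the core and 279 and 244 CPM in the invasion zone. The zones did not overlap, but core 1 exceeded invasion 1 by only 1.04-fold and core 2 exceeded invasion 2 by 1.23-fold. Its log2 fold change was -0.18 (SE 0.143, adjusted p = 0.488, edgeR), with a 95% interval from -0.54 to 0.18. With the block the interval ran from -0.37 to 0.01 (adjusted p = 0.120, edgeR), and a correction for GC content and length turned the value to 0.08 with and without the block. ITGA8 (ENSG00000077943, chromosome 10, 15513954 to 15719922, minus strand), the α chain of the nephronectin receptor α8β1, had 1 count in invasion 1 and 0 in the other libraries, where a count of 0 allows up to 3 counts, or 0.0837, 0.199 and 0.252 CPM.

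**Figure D2:**
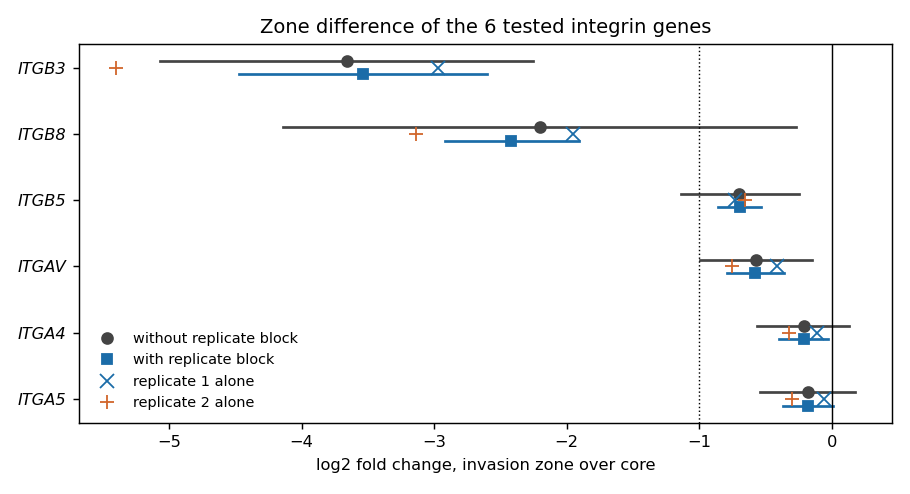
Log2 ratio of invasion zone to core (horizontal axis) for the 6 tested genes, fitted by edgeR without and with the replicate block, with 95% intervals, and as the plain ratio of each replicate (crosses). The dotted line marks the 2-fold minimum, which the blocked intervals of ITGB3 and ITGB8 lay wholly beyond.

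The α4 and α9 chains differed widely in level. ITGA4 (ENSG00000115232, chromosome 2, 181457202 to 181538940, plus strand), the α chain of the leukocyte receptors α4β1 and α4β7, was at 215 and 221 CPM in the core and 198 and 177 CPM in the invasion zone. The invasion libraries were lower by a factor of 1.08 in replicate 1 and 1.25 in replicate 2. Its log2 fold change was -0.21 (SE 0.138, adjusted p = 0.391, edgeR), with a 95% interval from -0.56 to 0.13, and the blocked adjusted p was 0.0663. Exons of CERKL on the opposite strand share 2813 of its 10654 exonic bases, and CERKL lay between 40.6 and 57.2 CPM.

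ITGA9 (ENSG00000144668, chromosome 3, 37452115 to 37823507, plus strand), the α chain of the tenascin-C and EMILIN-1 receptor α9β1, had 4 and 2 counts in the core and 8 and 6 in the invasion zone. It was the only one of the 9 genes with both invasion libraries above both core libraries in CPM, at 0.112 and 0.132 against 0.213 and 0.504. The 6 and 14 summed counts gave a ratio of invasion zone to core of 2.40 with a 95% exact interval from 0.868 to 7.63, which includes equality. Its antisense neighbour ITGA9-AS1 shares 763 exonic bases and lay between 0.331 and 0.530 CPM.

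Of the 3 partner chains, only ITGB1 had enough counts to be tested, and its invasion libraries lay above its core libraries. ITGB1, whose β1 chain pairs with αv, α4, α5, α8 and α9, was at 1120 and 1140 CPM in the core and 1213 and 1207 CPM in the invasion zone. Its log2 fold change was 0.10 (SE 0.139, adjusted p = 0.709, edgeR), with a 95% interval from -0.25 to 0.45, and 0.304 was the adjusted p with the block. ITGB7, the β chain of α4β7, had between 1 and 5 counts per library, and ITGA2B, the platelet partner of β3, between 2 and 12. The ratio of invasion zone to core over their summed counts had 95% exact intervals of 0.143 to 2.90 for ITGB7 and 0.430 to 2.14 for ITGA2B, too wide to give a direction. Thus 1 chain of α4β7 and 1 chain of αIIbβ3 had few counts in every library, while ITGA4 and ITGB1, the chains of α4β1, were at 177 CPM or more.

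Levels of different genes were compared as RPKM, the scaled count divided by the length of the union of a gene's exons. In the core the order was ITGB5 at 75.6 ± 11.2 RPKM (SD, n = 2), ITGA5 at 40.1 ± 0.915, ITGA4 at 20.4 ± 0.411, ITGAV at 11.5 ± 0.0668, ITGB8 at 8.83 ± 4.63 and ITGB3 at 1.36 ± 0.284. ITGAV and ITGB8 overlapped between libraries and could not be ordered, and the 3 untested genes lay at 0.0573 RPKM or less on average. In the invasion zone the same order held for the means, with ITGB5 at 46.7 ± 5.14 RPKM, ITGA5 at 35.4 ± 3.36, ITGA4 at 17.6 ± 1.39, ITGAV at 7.73 ± 1.30, ITGB8 at 1.88 ± 1.77 and ITGB3 at 0.0926 ± 0.0788. Neighbours from ITGB5 to ITGB3 in that order did not overlap, but ITGB3 overlapped with ITGA9 and ITGA9 with ITGB6. The chosen length matters for ITGAV, since its union of exons is 19336 bases and its canonical transcript 7039 bases. By canonical length ITGAV stood at 31.5 RPKM and ITGA4 at 32.1 RPKM in the core, and ITGB5 and ITGA5 overlapped in the invasion zone.

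Within the β3, β5, β6 and β8 group the composition of transcripts was dominated by ITGB5 in both zones. Its share of the summed RPKM was 86.2% and 90.5% in the core and 93.8% and 98.4% in the invasion zone. The ITGB8 share was 12.5% and 7.43% in the core and 5.83% and 1.45% in the invasion zone. The ITGB3 share was 1.20% and 2.09% in the core and 0.276% and 0.0844% in the invasion zone, a mean of 1.64 ± 0.629% (SD, n = 2) against 0.180 ± 0.136%. ITGB6 stayed at or under 0.0946%. For ITGB3, ITGB5 and ITGB8 the zones did not overlap, and with 2 libraries against 2 the smallest two-sided p of an exact permutation test is 0.333, so the shares were not tested.

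**Figure D3:**
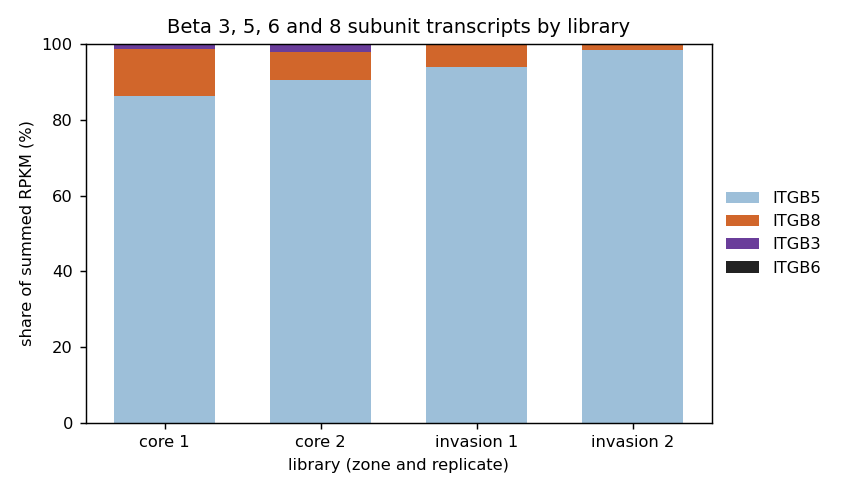
Share of the summed RPKM of ITGB3, ITGB5, ITGB6 and ITGB8 (vertical axis, percent, from 0) in each of the 4 libraries (horizontal axis). ITGB5 took at least 86.2% in every library, the ITGB8 segment was 12.5% and 7.43% in the core against 5.83% and 1.45% in the invasion zone, and ITGB6 is too small to be seen.

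Ratios between chains moved with these levels. ITGA5 exceeded ITGAV 3.42-fold and 3.57-fold in RPKM in the core, and 4.37-fold and 4.85-fold in the invasion zone. ITGB1 exceeded ITGAV 6.68-fold and 6.86-fold in the core and 9.63-fold and 12.2-fold in the invasion zone. The ratio of ITGB1 to the summed β3, β5, β6 and β8 RPKM was 0.794 and 1.05 in the core and 1.55 and 1.90 in the invasion zone. Each of these ratios was higher in both invasion libraries than in both core libraries. By canonical transcript length the same direction held at other sizes, with ITGA5 over ITGAV at 2.17 and 2.26 in the core and 2.77 and 3.07 in the invasion zone, and ITGB1 over the summed β chains at 2.07 and 2.76 against 4.09 and 5.03. Whether ITGB1 or that sum was the higher in the core thus depends on the length used. The ratio of ITGA4 to ITGA5 by the union of exons differed little, at 0.511 and 0.509 in the core and 0.492 and 0.503 in the invasion zone.

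The start regions of 4 members are shown to set genes that fell, ITGB8, ITGB5 and ITGAV, beside ITGA5, which did not pass the test. The sequences are RefSeq promoters on GRCh38.p14, 7 of the 9 genes were matched in that table, and ITGB3 and ITGA9 were not. Each run is the part of the 250 bases before an annotated start that lies outside exons of the gene, read 5′ to 3′ on the gene's strand. The table holds 10 windows for these 7 genes, among them 3 for ITGB5 and 2 for ITGAV, and for each gene the window that ends at the start of its canonical GENCODE transcript was used. Capitals mark the letters GCGTG on either strand (CACGC when read on the other), a core of the hypoxia response element.
ITGB8, chr7:20330650-20330701, plus strand: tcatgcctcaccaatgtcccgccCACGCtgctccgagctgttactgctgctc
ITGB5, chr3:124887366-124887599, minus strand: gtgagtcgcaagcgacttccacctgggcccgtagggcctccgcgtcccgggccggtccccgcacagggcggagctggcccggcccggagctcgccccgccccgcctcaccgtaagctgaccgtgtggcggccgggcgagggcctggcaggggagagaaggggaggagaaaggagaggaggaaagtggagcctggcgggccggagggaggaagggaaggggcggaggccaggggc
ITGAV, chr2:186589806-186590009, plus strand: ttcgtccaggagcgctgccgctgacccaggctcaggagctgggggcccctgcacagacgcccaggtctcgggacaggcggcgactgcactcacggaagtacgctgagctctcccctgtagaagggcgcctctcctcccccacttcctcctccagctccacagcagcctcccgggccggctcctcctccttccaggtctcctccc
ITGA5, chr12:54419267-54419516, minus strand: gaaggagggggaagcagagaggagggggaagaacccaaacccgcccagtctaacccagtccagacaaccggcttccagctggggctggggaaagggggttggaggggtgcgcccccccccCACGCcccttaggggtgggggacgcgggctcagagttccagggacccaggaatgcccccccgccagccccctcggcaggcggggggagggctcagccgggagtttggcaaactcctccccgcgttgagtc
In the full 250 bases of the windows shown GCGTG occurred 2 times for ITGB8, 1 time for ITGB5, 0 times for ITGAV and 1 time for ITGA5. The other ITGB5 windows held 3 and 0 matches, and the other ITGAV window held 0. ITGA4, which did not pass the test either and is not shown, had 1 match in its window. Of 35116 such windows in the table, 32.2% held at least 1 match and 10.2% at least 2. The related letters ACGTG, also searched, had 0 matches in each of the 10 windows of these genes. Of all 35116 windows, 18.5% held at least 1 match to ACGTG. The letters TGANTCA, where N is any base, were searched as well. They had 0 matches in each of the 10 windows, beside 6.57% of all windows with at least 1.

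Patterns over the 4 libraries were compared, as a description, by the root mean square difference of centred log2 CPM after adding 0.5 CPM. For each tested member, the genes most like it were found in this way. For ITGB3 these were MIR210HG (0.112 log2 units), the host transcript of a hypoxia-induced microRNA, and APOE (0.171), a lipid carrier. MIR210HG was at 37.3 and 41.5 CPM in the core and 5.06 and 2.52 CPM in the invasion zone. The added 0.5 CPM exceeds the ITGB3 level of 0.252 CPM in invasion 2, so it narrows the ITGB3 zone difference in this measure. For ITGB8 the most similar genes were VIT (0.140) and RARRES3 (0.159), with VIT at 43.4 and 24.2 CPM in the core and 13.5 and 2.61 CPM in the invasion zone. ITGB5 was most like RP11-345P4.9 and CPT2, ITGAV like PARP3 and COPG2, ITGA5 like ZNF792 and SBF2, and ITGA4 like CCDC127 and GAPVD1, at differences of 0.0231 log2 units or less.

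Of the 14 other integrin subunits, 9 were tested. With the block 5 fell and 3 rose, beside 19.4% of all genes in each direction. At the 2-fold minimum 7.06% of all genes were called lower, and so were 3 of the subunits that fell. These were the collagen receptor chains ITGA11 (log2 fold change -1.63, adjusted p = 0.000816, edgeR) and ITGA10 (-1.54, 0.00855) and the laminin receptor chain ITGB4 (-1.23, 0.00760). ITGA10 was also among the genes picked by the study. Of the other collagen receptor chains, ITGA1 fell by 0.66 on the log2 scale (adjusted p = 0.00141, edgeR). ITGA2 rose by 0.46 (adjusted p = 0.00648, edgeR), from 372 and 599 CPM in the core to 591 and 714 CPM in the invasion zone, with the zones overlapping. ITGA6 and ITGAE also rose, by 0.39 and 0.73. The chains special to leukocyte integrins of the β2 family, ITGB2, ITGAL, ITGAM, ITGAX and ITGAD, were all at 0.502 CPM or less, against 177 to 221 CPM for ITGA4. ITGAE, the αE chain of intraepithelial lymphocytes, lay between 17.8 and 35.9 CPM.

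Among 20 listed ligands of RGD-binding integrins, 13 were tested, and with the block 8 fell and 3 rose, beside 19.4% of all genes in each direction. The median log2 fold change was -0.65 against -0.01 over all genes, and without the block it was -0.66. Leaving out 1 library moved that unblocked median to -0.43 without core 1, -1.09 without core 2, -1.22 without invasion 1 and -0.40 without invasion 2. FN1, which encodes fibronectin, had the highest level of the list, at 2701 and 1851 CPM in the core and 1091 and 706 CPM in the invasion zone, and its log2 fold change was -1.35 (adjusted p = 3.25e-05, edgeR). The study named FN1 from these samples too. TGFBI, a secreted matrix adaptor, fell by 1.40 and the adhesion molecule L1CAM by 1.32 on the log2 scale. In the other direction, the matricellular genes CCN2 and CCN1, listed under the older names CTGF and CYR61, rose by 1.49 and 1.23 (adjusted p = 3.25e-05 and 4.22e-05, edgeR). ADAM15, a membrane protease with an RGD motif, rose by 0.25. The vitronectin and osteopontin genes, VTN and SPP1, were at 0.464 CPM or less.

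Of 10 ligands of the α4 and α9 chains, 8 were tested, 5 fell and 2 rose with the block, beside 19.4% of all genes in each direction, with a median of -1.28. The unblocked median was -1.25 and became -0.69 without core 1, and -1.45 to -1.09 without each of the others. TGM2, a transglutaminase that also binds these integrins, was the highest, at 1615 and 1220 CPM in the core and 610 and 309 CPM in the invasion libraries, and its fitted log2 difference was -1.69 (adjusted p = 6.19e-05, edgeR). EMILIN1, an elastic fibre glycoprotein, fell by 1.90 and the protease ADAM12 by 0.87. The lymphangiogenic growth factor gene VEGFC rose by 0.53. VCAM1, the classic α4β1 ligand, was at 0.0662 CPM or less.

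The genes that tether latent TGF-β, the cargo of αvβ6 and αvβ8, included 3 tested of 4. With the block 2 of them fell, beside 19.4% of all genes. The unblocked median over these 3 genes was -1.45, against -0.01 over all genes, and -2.02 to -1.06 with 1 library left out. LTBP1 was at 25.1 and 16.5 CPM in the core and 2.45 and 1.43 CPM in the invasion libraries, and its fitted log2 difference was -3.41 (adjusted p = 3.57e-05, edgeR). LTBP3 was at 268 and 192 CPM against 111 and 56.7 CPM, with a fitted log2 difference of -1.50 (adjusted p = 7.06e-05, edgeR).

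The proteins that bind integrin tails did not share one direction. All 31 genes on that list were tested, 11 rose and 5 fell, the median was 0.15, and 15 did not pass, beside 19.4% of all genes rising and 19.4% falling. The gene with the highest level, FLNA, which encodes an actin crosslinker, had a log2 fold change of 0.15 (adjusted p = 0.212, edgeR). Those that rose with the smallest p were the kindlin FERMT1 (0.92) and the focal adhesion adaptors PXN (0.56) and ZYX (0.48), and none of the 11 reached 2-fold. Those that fell included the talin-binding KANK2 (-1.09), the tensin TNS3 (-1.38) and the LIM adaptor LIMS2 (-1.68), each past the 2-fold minimum.

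Of 21 adhesion kinases and scaffolds, all tested, 6 rose and 2 fell, with a median of -0.01, beside 19.4% of all genes in either direction. RHOA, a GTPase of the contractile cytoskeleton and the highest of the list, rose by 0.29, PAK1 by 0.64 and RAP1B by 0.48. RAC2 fell by 0.59, and PTK2B, a relative of focal adhesion kinase, fell by 1.59 from a level of 2.26 CPM or less. Of 25 trafficking and membrane partners, 22 were tested, 4 rose and 5 fell, and the median was 0.02. Both shares are near the 19.4% of all genes that passed in either direction. NRP1 was the highest, with a log2 fold change of 0.01 (adjusted p = 0.925, edgeR). The αvβ3 and αvβ5 co-receptor SDC1 rose by 0.77, the urokinase receptor PLAUR by 0.32 and the endocytic GTPase RAB21 by 0.27, while the tetraspanins CD82, CD81 and CD63 fell by 1.08, 0.66 and 0.36. The edgeR test without a block passed no gene of any of these lists.

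**Figure D4:**
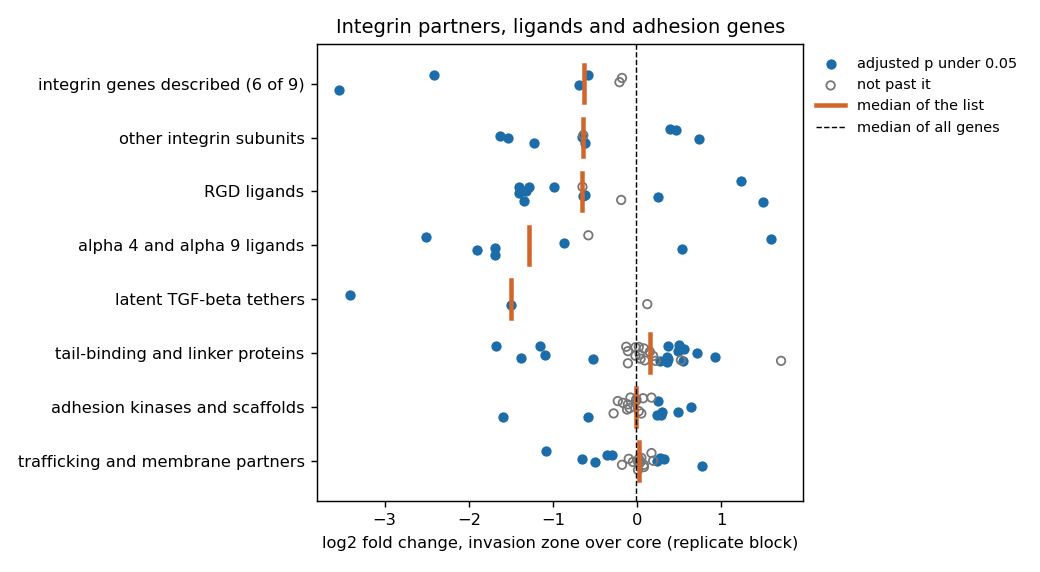
Log2 ratio of invasion zone to core, fitted with the replicate block (horizontal axis), for each tested gene of the 9 integrin genes and 7 related lists (rows), filled where the adjusted p was under 0.05, with each list's median as a bar and the median of all genes as a dashed line. The medians of the integrin and ligand lists lay between -1.28 and -0.63, that of the TGF-β tethers at -1.50, and those of the 3 intracellular and membrane lists between -0.01 and 0.15.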

How the data were processed

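Bulk RNA sequencing was analysed from 2 core and 2 invasion libraries. Before deposit, the authors made cDNA with the SMARTer Ultra low Input RNA kit, removed ribosomal reads with Bowtie, aligned to hg38 with STAR and counted reads per gene with HTSeq. The deposited values are raw counts. Their versions, the annotation release and the use of strand are not given in any source read here. The table had 56306 rows, of which 2 repeats were left out.

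Counts were tested in R 4.3.3 with edgeR 4.0.16 (quasi-likelihood test, TMM scaling, genes with 10 counts in at least 2 libraries at the median library size and 15 in total, Benjamini-Hochberg adjustment over 15529 genes). Calls needed an adjusted p under 0.05 together with at least a 2-fold change. CPM used TMM-scaled library sizes, and RPKM used exon lengths of GENCODE release 44. The methods take the core and the corresponding invasion zone from 1 dissected spheroid, which was read as pairing same-numbered libraries, although no source states what a number marks. Deviations of same-numbered libraries from their zone means correlated at r = 0.58 across genes (2 pairs), so the blocked fit is printed where it changes a call. Nothing says that the replicates came from separate cultures, so p-values measure only the spread between these libraries. Alternatives were DESeq2 1.42.0, limma 3.58.1, other scalings and filters, thinning, GC and length correction, and each library left out. The fit was tested on simulated data. The exact intervals and the limit of 3 counts for a count of 0 cover counting error only.

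The 9 genes and all lists were chosen with earlier results of these data known. Named were the 9 genes and their 3 partner chains, other integrins called in either fit, the most abundant gene of each other list and up to 3 genes per direction with the smallest blocked p, and the 2 genes of at least 10 CPM most like each tested member after adding 0.5 CPM. One gene that this rule names is not reported here by itself. Other genes are named for their level or, among the other integrins, for their direction, after their values were seen. Python 3.11.15 and matplotlib 3.10.9 made the figures.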

Additional observations from a re-analysis of the deposited data

How the results depend on the processing

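In edgeR with the low-count filter and without a replicate term no gene was called. This held with RLE and upper-quartile scaling, GC content and length correction, thinning to the smallest library and no fold minimum. It also held with a minimum of 10 counts in every library, which removed ITGB3, and with limma voom. Some other fits without a replicate term did call genes. Genes called higher and lower in the invasion zone, and members called lower, numbered 530, 1097 and 2 with the replicate block. They were 354, 548 and 1 with DESeq2 without the block, and 427, 731 and 2 with DESeq2 and the block. Limma voom with the block gave 575, 1088 and 2. Without a low-count filter and without the block the numbers were 427, 846 and 2. GC content and length correction with the block gave 751, 988 and 2, and an unadjusted p without the block 454, 909 and 2. Added after seeing the data, thinning with the block gave 502, 1028 and 2, and the block without a fold minimum 3010, 3009 and 4. Leaving out 1 library gave 0 to 555 genes higher, 4 to 1119 lower and 0 to 2 members lower; an arm left with 1 library was assumed to vary like the other. ITGA5 turned from -0.18 to 0.08 under GC content and length correction, with and without the block, and the cause was not tested. No member was called higher under any of these settings, and ITGB3, ITGB5, ITGB8, ITGAV and ITGA4 kept a negative value wherever they were fitted. The ITGB3 share of the 4 β chains was lower in the invasion zone by its main value of -1.46 percentage points and by -1.91 to -1.02 with 1 library left out. Blocked fits leave 1 residual degree of freedom per gene, so their p-values lean on spread estimated over all genes. Genes at a few counts could not be tested at this depth.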
